A study of Mus musculus with 8 samples.

Results

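Cytosolic ribosomal protein genes encode the proteins that, with ribosomal RNA, build the ribosome, the particle that translates messenger RNA into protein outside mitochondria. The members described here were the gene lines with all 8 counts whose symbol was Rpl or Rps followed by a number and whose description began with "ribosomal protein", leaving out pseudogenes and the S6 kinases. The rule found 81 genes among 17326 complete lines, 50 of the large subunit (Rpl) and 31 of the small subunit (Rps), or 0.468% of those lines. All 81 also passed the filter on low counts that left 16477 genes to be tested, so the tested set was the whole set. The levels of these genes were not used to choose them.

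RNA was read from mouse kidney cells separated by fluorescence-activated cell sorting, in 8 libraries that formed 4 groups of 2: endothelium and podocytes of EMCN+/+ mice (wild type) and endothelium and podocytes of EMCN-/- mice (knockout). The study concerns the glomerulus, the kidney's filter, and the loss of endomucin, a sugar-bearing protein on the surface of endothelial cells. The labels gave no strain, age, sorting marker or treatment, and did not say whether the Emcn allele was lost in every cell or whether the libraries of a group came from separate animals, so p-values measure only the spread between these libraries. Each group held a library numbered 2 and a library numbered 3.

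Ribosomal proteins are made in matched amounts, and the cell holds their output together mainly at translation. The messenger RNAs of most of them start with a C followed by a run of pyrimidines, the terminal oligopyrimidine tract, through which the kinase mTOR and the RNA-binding protein Larp1 set how much of the RNA is translated. A change in translation of that kind does not need a change in RNA level, and only RNA levels were measured here. Ribosomal protein genes have many processed copies in the mammalian genome, so short reads from them are harder to place than reads from most genes.

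The start of each transcript is shown for some of the members that the results turn on. RefSeq promoters (GRCm38.p6) were found for 60 of the 81 members. Each line runs from 10 bases before to 20 bases after the annotated start, and capitals mark the longest run in that window of a C followed by at least 4 further pyrimidines. Rps27 (chr3:90213629-90213658, minus strand), Rps18 (chr17:33955646-33955675, minus strand), Rpl35 (chr2:39005112-39005141, minus strand) and Rpl18 (chr7:45718061-45718090, plus strand) are shown because their 4 endothelial libraries all lay above their 4 podocyte libraries and their windows held the tract. Rpl4 (chr9:64173377-64173406, plus strand) and Rps3 (chr7:99483690-99483719, minus strand) also had all endothelial libraries above all podocyte libraries, and their windows held no tract. Rpl15 (chr14:18270967-18270996, minus strand) had the smallest p of the members lower in knockout endothelium. Rpl22l1 (chr3:28805498-28805527, plus strand) is a paralog whose groups overlapped.
Rps27: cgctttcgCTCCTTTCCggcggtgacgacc
Rps18: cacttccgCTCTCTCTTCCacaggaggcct
Rpl35: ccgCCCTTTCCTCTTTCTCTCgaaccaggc
Rpl18: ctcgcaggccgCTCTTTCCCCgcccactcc
Rpl15: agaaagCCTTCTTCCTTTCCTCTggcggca
Rpl4: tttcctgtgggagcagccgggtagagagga
Rps3: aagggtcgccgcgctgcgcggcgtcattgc
Rpl22l1: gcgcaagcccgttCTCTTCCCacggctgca

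Such a tract lay in the window of 41 of the 60 members (68.3%), against 39.6% of 27025 genes with a promoter in the table and 40.4% of the other genes tested. A C at the annotated start with at least 4 pyrimidines after it, whether or not the run also reached further upstream, was found for 13 members (21.7%), for 3.01% of all genes and for 2.84% of the other genes tested. Annotated starts can lie away from the starts used in these cells, so a window without a tract says only that the letters were not in those 30 bases. In the whole promoter of 300 bases, the ETS-family motif CCGGAAG, searched on both strands, was present for 24 members (40.0%), against 9.93% of all genes in the table and 14.5% of the 12003 other genes tested here. The GC box GGGCGG, on both strands, was present for 35 members (58.3%), against 38.2% of all genes and 54.9% of the other genes tested, so it was about as frequent as in the genes these cells express. The TATA box TATAAA, searched on the gene's strand, was present for 6 members (10%), against 9.77% of all genes and 7.45% of the other genes tested. A tract in the window did not separate the members by their values. In wild type, the 41 members with it had a median log2 fold change between endothelium and podocytes of 0.65, and the 19 without it 0.58.

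Sums over complete lines ranged from 10478956 to 17386042 counts per library, which leaves out the 23.11% of gene lines that could not be read in full. Emcn, the targeted gene, had 25953 and 25261 counts in wild-type endothelium and fell to 2460 and 2081 with the knockout. The sorted cells carried most of their markers. The summed level of 15 endothelial markers was 10850 to 13660 CPM (counts scaled to a common library size, with TMM factors that even out library composition) in the 4 endothelial libraries and 877 to 1373 CPM in the podocyte libraries. Of these 15, 13 were called higher and 1 was called lower in wild-type endothelium than in wild-type podocytes. The sum includes Emcn itself, at 1972 and 1828 CPM in wild-type and 173 and 179 CPM in knockout endothelium. The 9 podocyte markers on complete lines summed to 8165 to 16810 CPM in podocytes and 1657 to 2639 CPM in endothelium, so endothelial libraries were not free of podocyte RNA. The 7 distal tubule and collecting duct markers summed to 4293 to 21190 CPM across the libraries, and were high in both sorts. Replicate 3 of wild-type endothelium stood apart from the other libraries in the members, as described next, and the median and the counts over all members between cell types in wild type and between genotypes in endothelium are given with and without it. Medians of the members split by tract, unique share, subunit or small nucleolar RNA are given with all libraries only.

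Ribosomal protein genes took a larger share of all counts in the endothelial than in the podocyte libraries, a separation that did not hold once mitochondrially encoded genes were left out. The 81 genes held 0.386% (95% Wilson interval 0.382 to 0.389) and 0.470% (0.467 to 0.474) of counts in replicates 2 and 3 of wild-type endothelium. In knockout endothelium the shares were 0.480% (0.476 to 0.484) and 0.489% (0.485 to 0.493). Wild-type podocytes had 0.308% (0.305 to 0.310) and 0.270% (0.267 to 0.273), and knockout podocytes 0.306% (0.303 to 0.308) and 0.370% (0.367 to 0.373). All 4 endothelial libraries lay above all 4 podocyte libraries, and the intervals, which cover counting error only, were narrower than the gaps between replicates. In sorted bulk samples, fewer cells of a type and less RNA per cell cannot be told apart. The shares hold only reads assigned to these genes on complete lines. How reads that fit several places were counted was not given, so the shares may differ from the abundance of these RNAs.

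For endothelium the mean share was 0.428% ± 0.060 (SD, n = 2) with endomucin and 0.485% ± 0.006 (SD, n = 2) without it. For podocytes the mean was 0.289% ± 0.026 (SD, n = 2) with endomucin and 0.338% ± 0.046 (SD, n = 2) without it. In these unscaled shares, endothelium over podocytes was 1.48-fold in wild type and 1.43-fold in knockout. On the TMM scale the summed level of the members averaged 4630 CPM in wild-type endothelium, 3184 CPM in wild-type podocytes, 4092 CPM in knockout endothelium and 3446 CPM in knockout podocytes. The genotypes overlapped in podocytes, where knockout replicate 2 lay between the wild-type libraries. In endothelium both knockout libraries lay above both wild-type libraries in the share of all counts. With mitochondrially encoded genes left out of the total, the shares were 0.445% and 0.637% in wild-type endothelium, 0.534% and 0.608% in knockout endothelium, 0.350% and 0.325% in wild-type podocytes and 0.351% and 0.476% in knockout podocytes. The genotypes then overlapped in endothelium, and replicate 2 of wild-type endothelium lay below replicate 3 of knockout podocytes, so the cell types overlapped too. Mitochondrially encoded genes themselves held 13.3% and 26.2% of counts in endothelium of wild type, 10.1% and 19.6% in that of knockout, 12.2% and 16.9% in wild-type podocytes and 12.9% and 22.2% in knockout podocytes. This share was higher in replicate 3 than in replicate 2 of each group, and its part in the members' share was not tested.

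**Figure D1:**
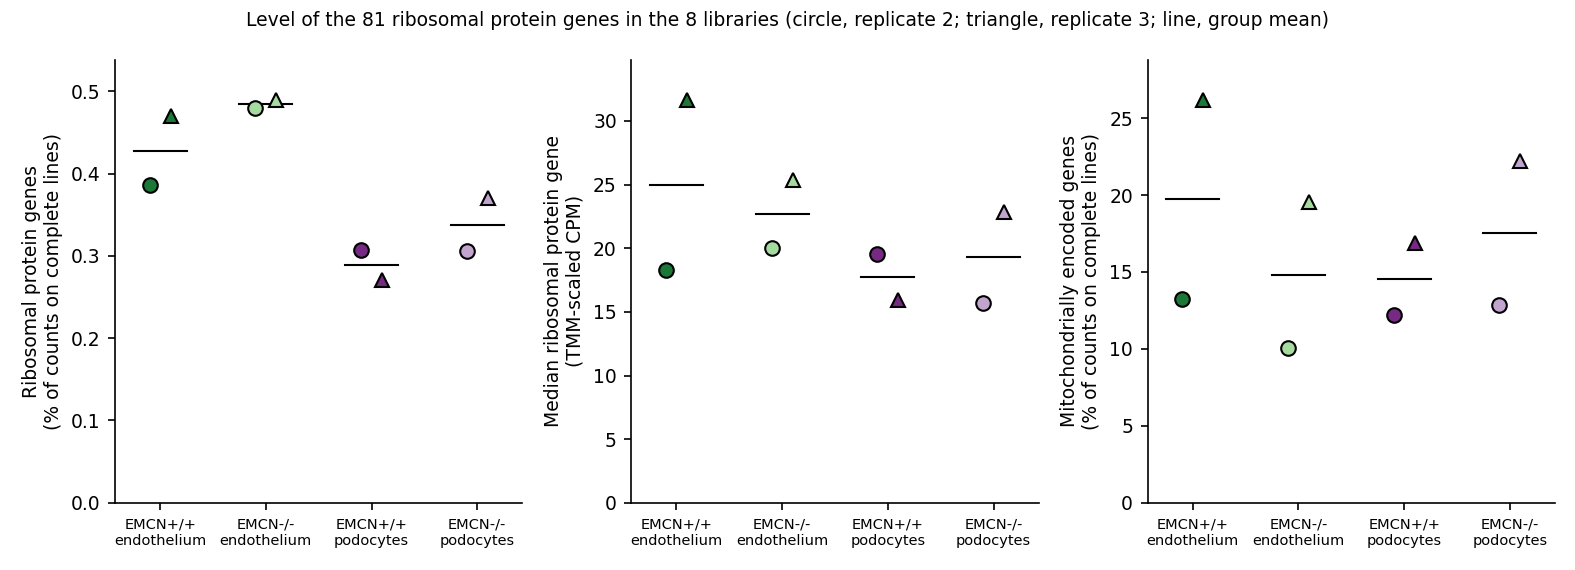
Points are libraries (circle, replicate 2; triangle, replicate 3) in the 4 groups on the horizontal axis, and lines are group means of 2. The vertical axes give the ribosomal protein genes as a percent of counts (left), the level of the median member in CPM (middle) and the mitochondrially encoded genes as a percent of counts (right). The 4 endothelial libraries, at 0.386% to 0.489%, lie above the podocyte libraries, at 0.270% to 0.370%, and replicate 3 of wild-type endothelium has the highest median member, at 31.6 CPM.

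Scaling changed which library stood highest. In TMM-scaled units, the median member was at 18.3 and 31.6 CPM in wild-type endothelium, 20.02 and 25.4 CPM in knockout endothelium, 19.5 and 15.9 CPM in wild-type podocytes and 15.7 and 22.9 CPM in knockout podocytes. On this scale replicate 3 of wild-type endothelium was highest, replicate 2 of the same group was below replicate 2 of wild-type podocytes, and the cell types overlapped. Replicate 3 of wild-type endothelium was the highest library for 70 of the 81 members, against 14.1% of all genes tested. The lowest library was replicate 3 of wild-type podocytes for 34 members and replicate 2 of knockout podocytes for 31. Replicate 3 of wild-type endothelium also had the highest mitochondrial share and the highest share of the ribosomal RNA genes Rn45s and Rn18s, 0.203% against 0.081% to 0.164% in the other libraries. Among 1719 other genes with transcripts under 1000 nt, 23.8% had their highest level in that library. The median log2 CPM of those short genes was nevertheless low there, at 0.97 against 0.82 to 1.66 in the other libraries, and their median genotype difference in endothelium was 0.12, where that of the members was −0.23. Whether these features had a part in the members' level there was not tested.

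The subunits kept nearly the same ratio in every library. Large-subunit genes summed to 1.101 to 1.149 times the small-subunit genes in the endothelial libraries and 1.18 to 1.22 times in the podocyte libraries, so the ratio was lower in all 4 endothelial libraries. A few members made up much of the total. The 3 most abundant held 22.5% to 26.0% of the members' counts in each library, and the 10 most abundant held 51.4% to 54.6%.

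Levels differed far more between members than between groups. Per kilobase of transcript, averaged over the 8 libraries, Rpl41, which encodes a very short protein of the large subunit, stood highest at 387 CPM per kb, and the paralog Rps27l was also high, at 314 CPM per kb. The lowest were the paralog Rpl10l at 0.352 CPM per kb, Rpl39 at 1.06 CPM per kb and the paralog Rpl39l at 1.81 CPM per kb. The median member was at 28.7 CPM per kb, against 5.80 CPM per kb for all genes tested with a transcript in GENCODE M21. A total of 20 members lay above the 90th percentile of all genes, 58.1 CPM per kb, and 10 lay below the median of all genes.

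Sequence shared with processed copies varied as widely. A stretch of 50 bases of a transcript was called unique when no transcript of another gene held it. The median member had 46.1% unique stretches, against 100% for the median gene, and 44 of the 80 members with a transcript had less than 50% unique stretches, against 6.54% of all genes. At least 1 shared stretch was found for 77 members. Rps27 had 1.35% unique stretches, the lowest share, and Rpl39l and Rpl3l were among those with 100%. Members with under 20% unique stretches had a median of 12.5 CPM per kb (17 genes), those with 20% to 50% had 24.1 (27 genes) and those with more had 40.9 (36 genes). Across the 80 members, the Spearman correlation of the unique share with the level per kb was 0.27, given as a description, since the points share the same 8 libraries. How the authors' counting treated reads that fit several places was not given in the sources used here, so levels between members are uncertain where copies are near identical. From the least to the most unique class, the median log2 fold change between endothelium and podocytes was 0.60, 0.59 and 0.60 in wild type and 0.35, 0.28 and 0.24 in knockout.

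**Figure D2:**
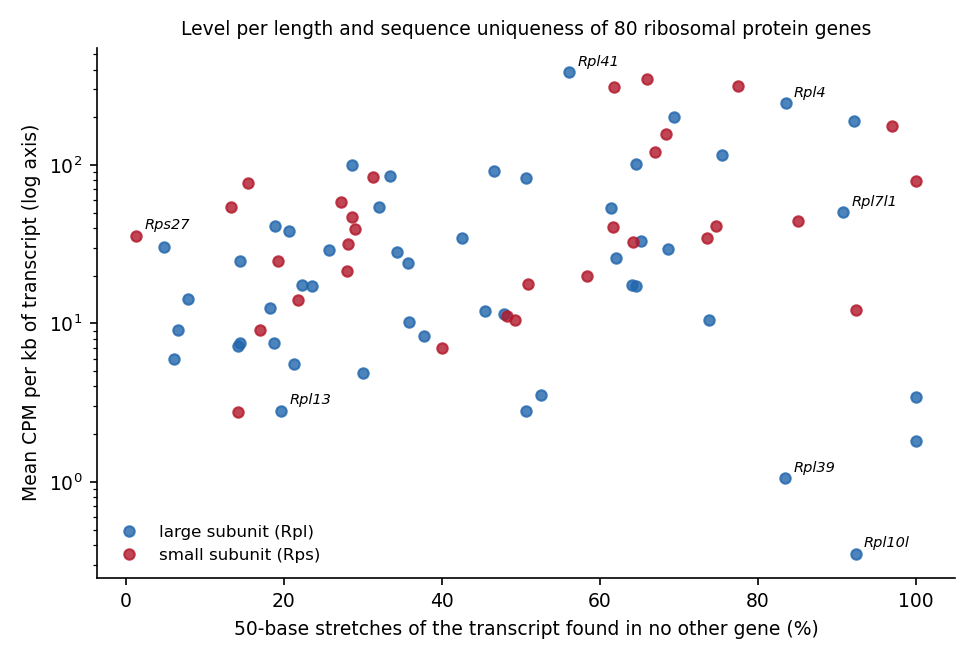
Each point is 1 of 80 ribosomal protein genes, blue for the large and red for the small subunit. The horizontal axis gives the percent of 50-base stretches of the transcript found in no other gene, and the vertical axis the mean level over 8 libraries in CPM per kb on a log axis. The points cover nearly the whole horizontal range, from 1.35% for Rps27 to 100%, with Rpl41 the highest at 387 CPM per kb.

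Copies annotated as genes took reads as well. Rps27rt, a retrocopy of Rps27, sat on a line with 7 counts, which ran from 1970 to 2945, while Rps27 had 95 to 290 counts in the 8 libraries. Rpl37rt had 1199 to 2288 counts and Rpl34-ps1 921 to 1712. Which library each of those 7 counts belonged to could not be read, so no comparison is made with them. The same held for 7 lines that were no pseudogenes, among them the stalk protein genes Rplp0 (6 counts of 3420 to 5226), Rplp1 and Rplp2 and the X-linked Rps4x (7 counts of 85 to 142).

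Most ribosomal protein genes were counted higher in wild-type endothelium than in wild-type podocytes. Of the 81 members, 79 had a positive log2 fold change (higher in endothelium), with a median of 0.60 and quartiles of 0.40 and 0.81, against a median of −0.01 over all genes tested. By edgeR's quasi-likelihood test with Benjamini-Hochberg adjustment over 16477 genes, 3 members passed an adjusted p of 0.05, all higher in endothelium. The background was 8.99% of all genes tested in either direction and 4.26% higher in endothelium, so a count of 3 among 81 is near the background and is not a result about the members. Before adjustment, 22 members (27.2%) had a p under 0.05, against 19.6% of all genes. The median was 0.60 in both subunits.

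Rps19 encodes a small-subunit protein needed to process the small ribosomal RNA and is the gene most often mutated in Diamond-Blackfan anaemia. It was at 59.7 and 90.5 CPM in wild-type endothelium, 61.1 and 61.3 CPM in knockout endothelium, 42.1 and 30.6 CPM in wild-type podocytes and 42.6 and 37.9 CPM in knockout podocytes. All 4 endothelial libraries lay above all 4 podocyte libraries, and the genotypes overlapped in podocytes. The log2 fold change between cell types in wild type was 1.04 (SE 0.27, edgeR adjusted p 0.0332).

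Rps27, the small-subunit gene whose window is printed above and whose paralog Rps27l is also a member, was at 15.8 and 20.99 CPM in wild-type endothelium, 13.5 and 15.1 CPM in knockout endothelium, 8.68 and 6.90 CPM in wild-type podocytes and 9.32 and 8.63 CPM in knockout podocytes. Again the 4 endothelial libraries were the 4 highest. The log2 fold change in wild type was 1.24 (SE 0.32, edgeR adjusted p 0.0375), on a gene with few unique stretches and a highly counted retrocopy.

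The sizes of these differences depended on single libraries, and fits with 1 library in a group are given here by effect size only. Without replicate 3 of wild-type endothelium the median of the members was 0.16 and 63 of 81 were higher in endothelium. The log2 fold changes were then 0.71 for Rps19 and 1.02 for Rps27. Without replicate 2 of the same group the median was 0.93. Without replicate 2 or replicate 3 of wild-type podocytes the medians were 0.73 and 0.50.

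**Figure D3:**
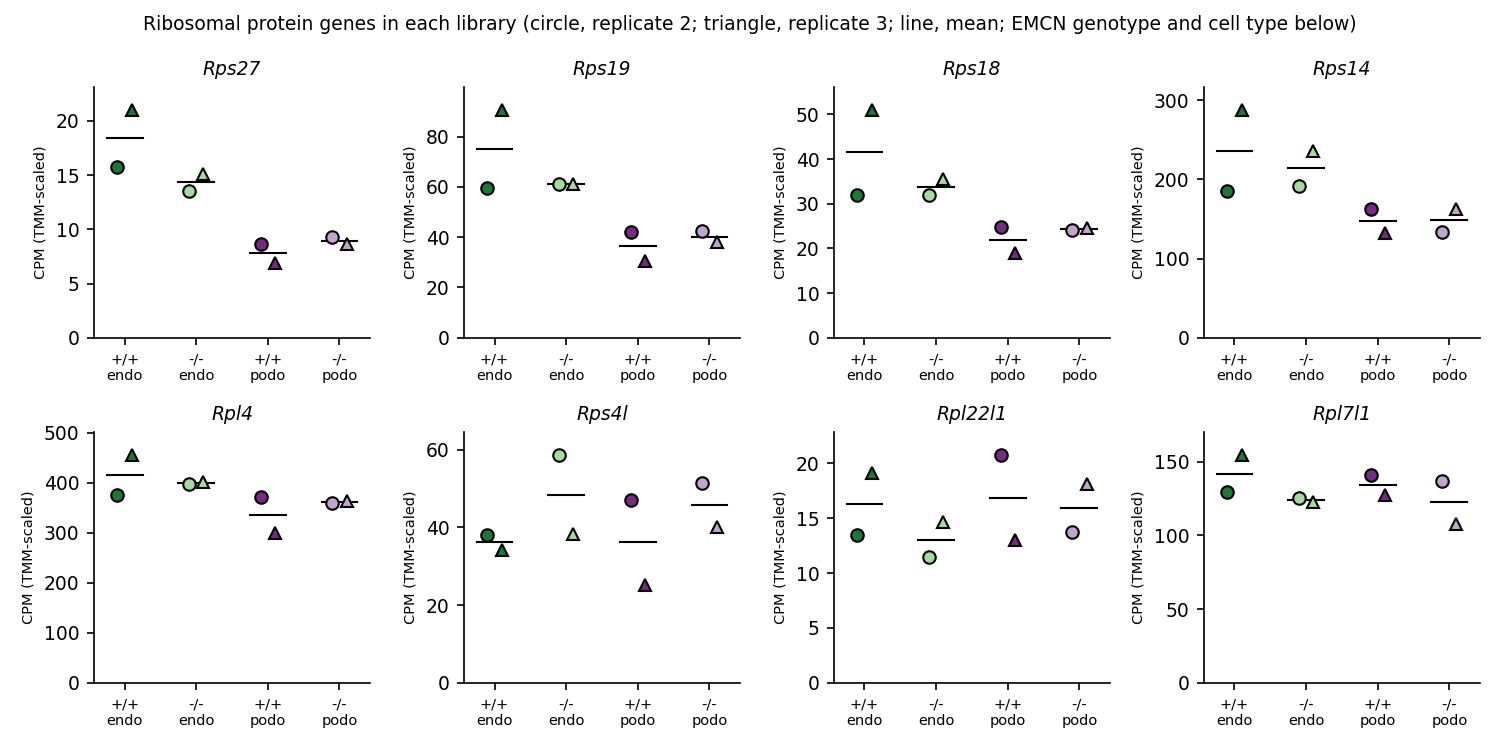
Each panel is 1 gene, with TMM-scaled CPM on a vertical axis that starts at 0, the 4 groups on the horizontal axis, libraries as points (circle, replicate 2; triangle, replicate 3) and group means of 2 as lines. In the panels of Rps27, Rps19, Rps18 and Rps14 the endothelial points all lie above the podocyte points, while Rps4l, Rpl22l1 and Rpl7l1 show overlapping groups.

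Across the 4 endothelial and 4 podocyte libraries, whatever the genotype, 14 members (17.3%) had every endothelial library above every podocyte library, where 9.59% of all genes tested did. None of the 81 had every endothelial library below, where 12.3% of all genes did. Among the 14 were Rpl3, Rpl4, Rpl18, Rpl32, Rpl34, Rpl35, Rpl36a and Rpl37 of the large subunit and Rps3, Rps14, Rps18, Rps19 and Rps27 of the small subunit. Rps14, whose loss causes the anaemia of the 5q syndrome, was at 184.9 and 288 CPM in wild-type endothelium, 192 and 237 CPM in knockout endothelium, 163 and 132 CPM in wild-type podocytes and 134 and 163 CPM in knockout podocytes. Rpl4, the member with the most counts, was at 375 and 455 CPM in wild-type endothelium, 397 and 401 CPM in knockout endothelium, 372 and 300.1 CPM in wild-type podocytes and 359 and 363 CPM in knockout podocytes. Its lowest endothelial and highest podocyte library were thus nearly equal, and its log2 fold change in wild type, 0.30 (SE 0.23), did not pass (edgeR adjusted p 0.558). Rps3, which lines the channel where messenger RNA enters, was at 333 and 474 CPM in wild-type endothelium and 291 and 252 CPM in wild-type podocytes.

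In knockout, too, most members had a positive difference between cell types. A total of 70 members were higher in endothelium, with a median of 0.28 against −0.01 over all genes. That median was below the 0.60 of wild type with all libraries, and above it without replicate 3 of wild-type endothelium, at 0.27 against 0.16. By edgeR 0 members passed, against a background of 10.4% of all genes tested. Before adjustment 2 members (2.47%) had an edgeR p under 0.05, against 22.9% of all genes (0 members by DESeq2). Rps19 was at 0.60 (SE 0.26, edgeR adjusted p 0.203). The members of smallest p on the other side were Rpl15, at −0.32 (SE 0.25), and Rpl21, at −0.43 (SE 0.36). Scaling by library size only moved the median of all genes to 0.27 and that of the members to 0.56. With it 1 member passed, against 7.39% of all genes tested. Relative to all genes, the members' median was 0.29 under both scalings. With each library left out in turn it ran from 0.11 to 0.46.

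**Figure D4:**
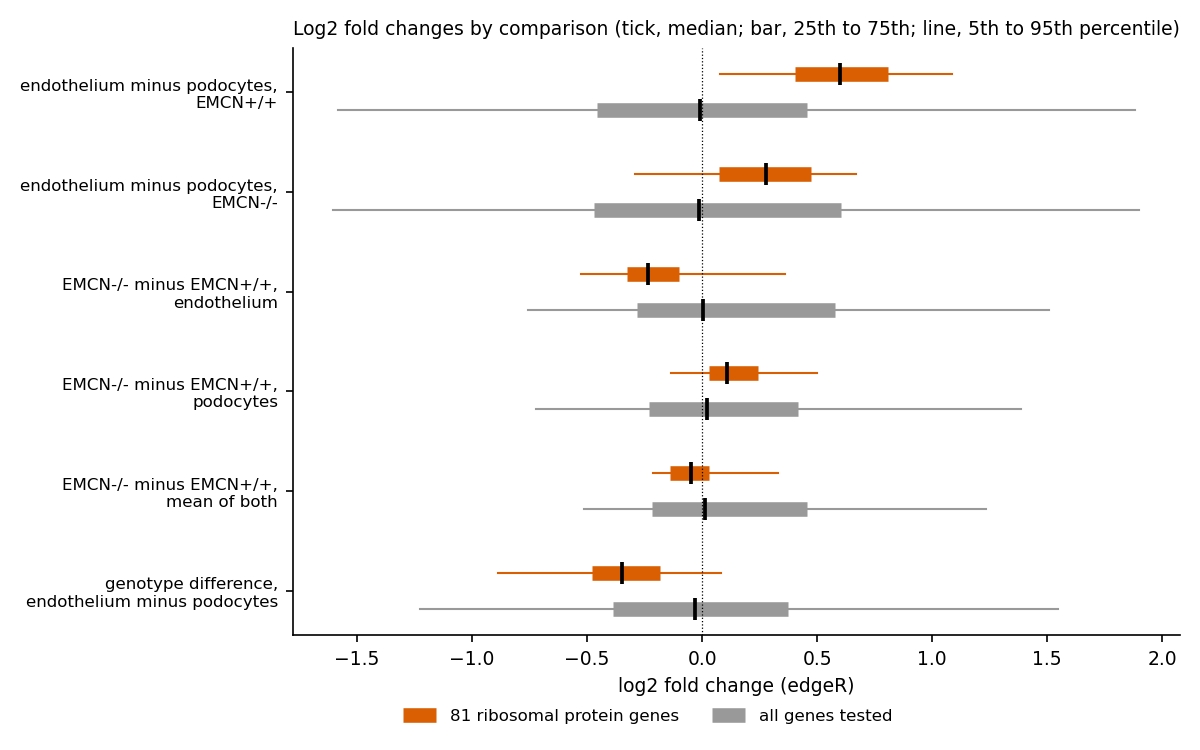
Log2 fold changes of the 81 ribosomal protein genes (orange) and of all genes tested (grey) in the 6 comparisons, with a tick at the median, a bar from the 25th to the 75th percentile and a line from the 5th to the 95th. The lines of the members are shorter than those of all genes in all 6 comparisons, with medians of 0.60 and 0.28 between cell types and −0.23 and 0.11 between genotypes.

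Loss of endomucin was not followed by a called change of any member in endothelium. Here 70 members had a negative log2 fold change (lower in knockout) and 11 a positive one, with a median of −0.23 against 0.01 over all genes. By edgeR 0 members passed, against a background of 0.00607% (1 gene, Emcn). Before adjustment 0 members had a p under 0.05 by edgeR or DESeq2, against 5.49% of all genes by edgeR. The smallest adjusted p was 0.716. The sign depended on replicate 3 of wild-type endothelium, without which the median was 0.18 and 63 members were higher in knockout. It also flipped with scaling by library size only, to 0.13, where the median of all genes was 0.33, so that relative to all genes the members stayed lower, by −0.20. Without replicate 2 of knockout endothelium the median was −0.08, with 28 members higher. Without replicate 2 of wild-type endothelium it was −0.57, with 6 members higher. A refit of the 10138 genes whose mean level reached 5 CPM, which also changed the scaling, gave the 68 members in it a median of −0.05.

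The members of smallest p did not pass either. Rpl15, of the large subunit, was at 45.8 and 62.3 CPM with endomucin and at 37.2 and 43.5 CPM without it in endothelium, and its log2 fold change was −0.42 (SE 0.25, edgeR adjusted p 0.716). The genotypes did not overlap. On the other side, Rps4l was at 38.1 and 34.3 CPM in the wild-type and at 58.6 and 38.4 CPM in the knockout libraries, at 0.42 (SE 0.33, edgeR adjusted p 0.731), and at 0.08 without replicate 2 of knockout endothelium. Rpl39l had 25 and 30 counts in the knockout libraries, above the 18 and 14 of the wild type.

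In podocytes, likewise, no member was called between genotypes. A total of 64 members were higher in knockout and 17 lower, with a median of 0.11 against 0.02 over all genes. By edgeR 0 members passed (background 0.00607%, again Emcn), and the smallest adjusted p was 0.978. Before adjustment 0 members had a p under 0.05 by edgeR or DESeq2, against 4.43% of all genes by edgeR. Rps15a, a small-subunit gene, was at 7.19 and 6.61 CPM in wild-type and 8.39 and 18.3 CPM in knockout podocytes, at 0.95 (SE 0.47). Rpl27a was at 16.5 and 12.9 CPM in wild-type and 17.1 and 24.6 CPM in knockout podocytes, at 0.50 (SE 0.33). Rps7 was at 5.96 and 7.48 CPM in wild-type and 3.73 and 5.53 CPM in knockout podocytes, at −0.54 (SE 0.40), and Rpl9 was at −0.55 (SE 0.44). Replicate 3 of knockout podocytes was the higher knockout library for Rps15a, Rpl27a and Rps7, and without it the median of the members was −0.12, with 25 higher. Without replicate 3 of wild-type podocytes 41 were higher, with a median of 0.00. Without replicate 2 of wild-type podocytes 69 were higher, with a median of 0.30, and without replicate 2 of knockout podocytes 72 were, also with a median of 0.30.

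For the mean genotype effect over both cell types, 0 members passed by edgeR (background 0.00607%). Before adjustment 0 members had a p under 0.05 by edgeR or DESeq2, against 8.59% of all genes by edgeR. The mean effect had a median of −0.05 in the members and 0.01 in all genes. Its sign in the members flipped with scaling by library size only (0.18, all genes 0.23), with a filter at a mean of 5 CPM (0.08), and without replicate 3 of wild-type endothelium (0.13), replicate 2 of knockout endothelium (0.02), replicate 2 of wild-type podocytes (0.03) or replicate 2 of knockout podocytes (0.04). Rps4l was the higher member of smallest p, at 0.38 (SE 0.23, edgeR adjusted p 0.577), with 47.0 and 25.3 CPM in wild-type and 51.6 and 40.0 CPM in knockout podocytes. Rpl30 followed, at 0.41 (SE 0.28, edgeR adjusted p 0.598). Rpl35a was the lower member of smallest p, at −0.38 (SE 0.30, edgeR adjusted p 0.637), followed by Rps27l, at −0.21 (SE 0.18).

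The difference between the genotype effects, endothelium minus podocytes, was negative for 74 members, with a median of −0.35 against −0.03 over all genes. In this interaction 0 members passed by edgeR, as did 0% of all genes. Before adjustment 0 members had a p under 0.05 by edgeR or DESeq2, against 2.6% of all genes by edgeR. Without replicate 3 of wild-type endothelium the median was 0.04 and 48 members were positive. Rps15a had the smallest p on the negative side, at −1.24 (SE 0.65), followed by Rpl27a, at −0.74 (SE 0.47). On the positive side it was Rps7, at 0.67 (SE 0.56), followed by Rpl39l, at 1.16 (SE 0.97).

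**Figure D5:**
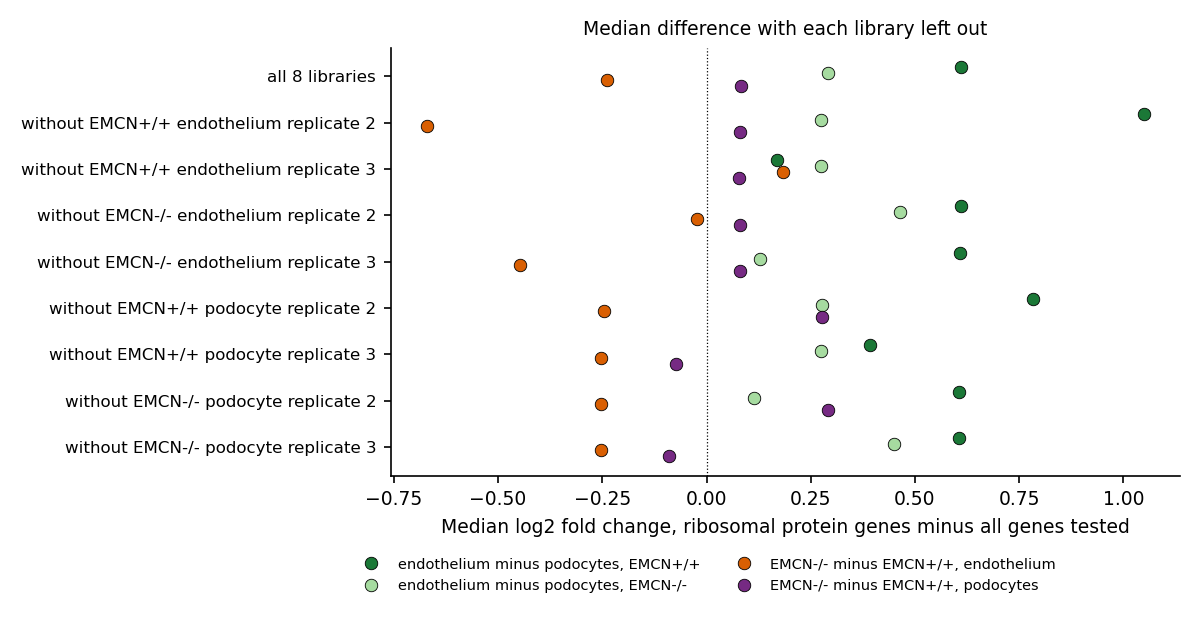
Median log2 fold change of the members minus that of all genes (horizontal axis) for 4 comparisons, with all 8 libraries and with each library left out (rows). Leaving out replicate 3 of wild-type endothelium moves the orange points (genotype, endothelium) from −0.24 to 0.18 and the dark green points (cell types, wild type) from 0.61 to 0.17, while the light green points (cell types, knockout) stay above 0 in every row.

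A list of 8 members held paralogs of other ribosomal protein genes, and Rps3a1, which is itself the main mouse gene for its protein. Between cell types in wild type their median log2 fold change was 0.18, with 6 higher and 2 lower in endothelium and 0 passing, and without replicate 3 of wild-type endothelium it was 0.04, with 5 higher. The values ran from −0.19 for Rpl39l to 0.83 for Rpl3l, leaving out Rpl10l, whose fitted value was higher still but rests on 11 and 0 counts in endothelium and 0 and 2 in podocytes. Rpl22l1, the paralog of Rpl22, was at 13.5 and 19.1 CPM in wild-type endothelium, 11.4 and 14.6 CPM in knockout endothelium, 20.7 and 13.0 CPM in wild-type podocytes and 13.7 and 18.1 CPM in knockout podocytes. Rpl22 itself was at 44.9 and 75.6 CPM, 54.5 and 65.0 CPM, 50.8 and 43.6 CPM, and 48.5 and 57.7 CPM in the same order. Every group of either gene overlapped another.

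Rps27l, a target of p53 whose protein differs little from that of Rps27, was at 154.9 and 224 CPM in wild-type endothelium, 121 and 170.5 CPM in knockout endothelium, 159 and 136 CPM in wild-type podocytes and 139 and 148 CPM in knockout podocytes. Its log2 fold change between cell types was 0.36 (SE 0.26, edgeR adjusted p 0.532), where that of Rps27 was 1.24, and the difference between the paralogs was not tested. Rpl7l1 was at 108 to 154 CPM over all 8 libraries, with a log2 fold change of 0.08 (SE 0.22). Rps3a1 was at 27.8 to 52.3 CPM. Rpl3l, known from heart and skeletal muscle, had 14 to 73 counts in a library, and Rpl10l, known from testis, 0 to 11 counts, with 0 in replicate 3 of wild-type endothelium and replicate 2 of wild-type podocytes.

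Of the members often used as reference genes in quantitative PCR, 0 of 9 passed by edgeR in any of the 6 comparisons. All 9 had positive log2 fold changes between cell types in wild type, with a median of 0.59, near the 0.60 of all members, and without replicate 3 of wild-type endothelium 7 did, with a median of 0.14. Rps18 was at 32.1 and 51.0 CPM in wild-type endothelium, 32.01 and 35.5 CPM in knockout endothelium, 24.9 and 19.0 CPM in wild-type podocytes and 24.2 and 24.5 CPM in knockout podocytes, with a log2 fold change of 0.92 (SE 0.28, edgeR adjusted p 0.0783). Rpl13a was at 31 and 57.8 CPM in wild-type endothelium and 33.8 and 25.2 CPM in wild-type podocytes, so its cell types overlapped. Rpl32 was at 103 and 149 CPM in wild-type endothelium, 118 and 127 CPM in knockout endothelium, 89.5 and 64.3 CPM in wild-type podocytes and 88.6 and 95.1 CPM in knockout podocytes, at 0.71 (SE 0.25, edgeR adjusted p 0.133). The other 6 (Rpl4, Rpl19, Rpl27, Rpl30, Rps13 and Rps29) had log2 fold changes between 0.24 and 0.71. Between genotypes in endothelium, 7 of the 9 had negative values and 2 positive ones, with a median of −0.21, and without that library all 9 were positive, with a median of 0.24.

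Some ribosomal proteins bind Mdm2 when ribosome assembly fails and so lead to a rise of p53. Of the 5 such members, Rpl5 was at 8.13 and 23.9 CPM in wild-type endothelium, 11.6 and 15.9 CPM in knockout endothelium, 10.1 and 6.53 CPM in wild-type podocytes and 8.39 and 12.9 CPM in knockout podocytes. Its highest library was replicate 3 of wild-type endothelium, while replicate 2 of the same group lay below every other library except replicate 3 of wild-type podocytes. Rpl11 was at 3.54 to 10.2 CPM, Rpl23 at 22.2 to 66.9 CPM, Rpl26 at 36.2 to 85.0 CPM and Rps7 at 3.73 to 8.18 CPM over the 8 libraries. Between cell types in wild type all 5 had positive log2 fold changes (median 0.78), in knockout endothelium 4 had negative ones (median −0.27), and 0 passed either test. The medians were 0.11 and 0.18 without replicate 3 of wild-type endothelium, with 4 positive in each.

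A selection of genes mutated in ribosomopathies, which are inherited or acquired failures of ribosome formation, held 7 members and Rpsa. It is not complete, since Rpl5, Rpl11 and Rpl26 are also known as such genes. Rps19 was called between cell types in wild type, as given above. Others of the list (Rps10, Rps14, Rps24, Rps26, Rpl35a and Rpsa) had log2 fold changes between 0.33 and 1.08 there and did not pass. In knockout endothelium all 8 had negative log2 fold changes (median −0.32), in knockout podocytes 7 had positive ones (median 0.21), and 0 passed. Without replicate 3 of wild-type endothelium, 6 of the 8 were positive in knockout endothelium (median 0.12), and the median between cell types in wild type was 0.25, where it was 0.77 with all libraries. Rps24 was at 30.4 and 67.4 CPM in wild-type endothelium, 46.3 and 50.8 CPM in knockout endothelium, 30.2 and 23.7 CPM in wild-type podocytes and 26.2 and 38.4 CPM in knockout podocytes.

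Among ribosome genes that the symbol rule leaves out, most had the sign of the members. Rpsa and Fau, which also encode ribosomal proteins, and Rack1, which sits on the small subunit, were higher in wild-type endothelium than in wild-type podocytes by log2 fold changes of 0.88, 0.81 and 0.67, and Rpl36al was at −0.13, all without passing (edgeR adjusted p from 0.244 to 0.876). Rack1 was at 99.5 and 169 CPM in wild-type endothelium and 96.8 and 72.5 CPM in wild-type podocytes. The whole list, in which the members Rpl9 and Rpl41 were also placed, had 7 tested genes with a median of 0.67 there and 0.09 without replicate 3 of wild-type endothelium.

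Other genes of the pathway are given by their lists. Of the other genes with a terminal oligopyrimidine tract, 17 were tested, with a median of 0.28 between cell types in wild type, 13 higher, and 1 passed, Nap1l1, a histone chaperone that was lower in endothelium, with a log2 fold change of −1.54 (SE 0.24, edgeR adjusted p 0.00212). Without replicate 3 of wild-type endothelium the list's median was −0.01, with 8 higher. Of all genes tested, 4.73% were called lower in wild-type endothelium, the background for this count and the next ones. Eef1a1, the elongation factor that brings transfer RNA to the ribosome, was at 614 and 883 CPM in wild-type endothelium, 665 and 874 CPM in knockout endothelium, 654 and 518 CPM in wild-type podocytes and 646 and 843 CPM in knockout podocytes. The 61 ribosome biogenesis factors tested lay on the other side, with 44 lower in wild-type endothelium, a median of −0.21 and 1 called lower. The 11 initiation factors had a median of −0.05 there and 0 passed, and the 9 genes of RNA polymerase I had a median of −0.01 and 0 passed. Of 19 regulators of mTOR, MYC and tract-bearing RNA, 2 were called lower in wild-type endothelium, with 12 of 19 lower and a median of −0.09. In knockout the same list had 3 called lower in endothelium, with 16 of 19 lower and a median of −0.46, where 6.09% of all genes tested were called lower. The other 4 lists had 1, 0, 1 and 0 genes called lower in knockout endothelium and medians of 0.03, −0.13, −0.26 and −0.16, in the order given above. By genotype in endothelium 0 genes of these 5 lists passed, with medians of −0.19, −0.08, −0.22, 0.05 and −0.35 in the order given.

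Mitochondrial ribosomal proteins, which build the separate ribosome inside mitochondria, are given beside the cytosolic ones. All 77 tested had negative log2 fold changes in knockout endothelium (median −0.35), and 0 passed by edgeR. Without replicate 3 of wild-type endothelium, 54 were lower, with a median of −0.07. In knockout podocytes 25 had positive and 52 negative values, with a median of −0.07, where the cytosolic members had 64 and 17 and a median of 0.11. Between cell types in wild type 58 of 77 were higher in endothelium, with a median of 0.12, and without that library 12 were, with a median of −0.20, where the cytosolic members had 0.60 and 0.16. Their summed level was 4883 to 7342 CPM in wild-type endothelium, 3942 to 5360 CPM in knockout endothelium, 5422 to 5753 CPM in wild-type podocytes and 4740 to 5901 CPM in knockout podocytes.

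Other lists also had values that differed between groups, and some of their ranges overlapped. The 18 genes of the response to tissue dissociation (immediate-early and heat shock genes) summed to 44920 to 52160 CPM in wild-type endothelium and 28140 to 36220 CPM in knockout endothelium. All 18 were lower in knockout endothelium, with 0 passing. In podocytes they summed to 40930 to 49180 CPM in wild type and 34410 to 40140 CPM in knockout, with 12 lower, 6 higher and 0 passing. The distal tubule markers were at 10420 to 21190 CPM in wild-type and 4293 to 9915 CPM in knockout endothelium, and the proximal tubule markers at 310 to 473 CPM and 467 to 714 CPM. In the same order, the mural and mesangial markers were at 438 to 667 CPM and 317 to 537 CPM, and the immune markers at 30.98 to 65.4 CPM and 40.3 to 54.6 CPM. Of the 7 mural and mesangial markers, however, 4 were higher in knockout endothelium and 3 lower, with a median log2 fold change of 0.73. Of the 15 endothelial markers 12 were higher there and 3 lower (median 0.22), and of the 9 podocyte markers 2 were higher and 7 lower (median −0.31). Between genotypes in podocytes, all 9 podocyte markers were lower in knockout (10690 to 16810 CPM in wild type and 8165 to 9611 CPM in knockout) and all 7 proximal tubule markers higher (683 to 1278 CPM and 761 to 2940 CPM), with median log2 fold changes of −0.56 and 0.69 and 0 passing. There the distal tubule markers were at 10070 to 19480 CPM and 14610 to 15270 CPM, the mural and mesangial markers at 934 to 975 CPM and 498 to 1267 CPM, and the immune markers at 86.3 to 101 CPM and 91.2 to 129 CPM. The 1 erythroid marker on a complete line was at 1.41 CPM or less in every library. The part of these cells and of dissociation in the members' values was not tested.

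Position gave the members a shared feature that the rule did not use. They lay on 19 chromosomes, with 13 on chromosome 7. A small nucleolar RNA gene lay inside 28 of the 81 (34.6%), against 1.97% of the genes tested that had a RefSeq entry, and these 28 held 55 such RNAs, which guide the modification of ribosomal RNA. Rpl4 held 5 and Rps3 held 2. Members with and without one did not separate between cell types, with medians of 0.60 and 0.59 in wild type. A total of 18 members overlapped another gene, for which the counts are uncertain, because the use of strand in counting was not given in the sources used here.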

How the data were processed

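Polyadenylated RNA of 8 sorted mouse libraries was sequenced after an Illumina TruSeq preparation, per the labels' protocols. The deposited table gives unnormalized counts of reads for each Entrez gene ID, with 1 column per alignment file, per the file headers. In 3 deposited columns the cells of short lines were empty or unreadable, so these columns were recorded as other than plain counts, although every value on complete lines was a whole number. The build mm10 and DESeq2 were named without a role, per the submitters' processing notes. The aligner, the counting tool and the use of strand were not given in the sources used here. Of 22533 gene lines, 5207 held fewer than 8 counts and were not analysed here.

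Counts were fitted with edgeR 4.0.16 in R 4.3.3 (filterByExpr, TMM scaling, quasi-likelihood F test, 1 mean per group over all 8 libraries, Benjamini-Hochberg adjustment over 16477 genes, threshold 0.05). CPM used TMM-scaled library sizes, and SE was the log2 fold change over the square root of F. Promoters and gene overlaps came from RefSeq (GRCm38.p6) and transcripts from GENCODE M21. The fit was tested on simulated data. Alternatives used DESeq2 1.42.0 and limma 3.58.1, other scalings and filters, a replicate block and each library left out.

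Named members were those called in a comparison or, where none was, the 2 of smallest p in each direction, the members of lists of paralogs, references, p53-linked and ribosomopathy genes, and the highest and lowest per kilobase. Members printed for all endothelial libraries lying above all podocyte libraries were chosen after their values were seen. The members and lists were chosen with earlier results of these data known. Values of some single members are not reported here.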

Additional observations from a re-analysis of the deposited data

How the results depend on the processing

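Among the alternatives, the number of members called between cell types in wild type was 5 in a fit of only the libraries compared and ran from 0 to 9 with each library left out, and in knockout it was 1 with scaling by library size only. In the other comparisons 0 members were called under every alternative. With a library left out, the members' median ran from −0.57 to 0.18 by genotype in endothelium, from −0.64 to 0.0357 in the interaction and from 0.16 to 0.93 between cell types in wild type. The endothelium-to-podocyte ratio in knockout was 1.43 from the unscaled share of counts and 1.18 from the TMM-scaled level of the median member, so both the scaling and the summary differ. Some members near 0 changed sign. Rpl22l1 between cell types in wild type was 0.0339 with TMM computed without the members and mitochondrial genes, 0.0057 with a mean of at least 5 CPM, 0.0577 with only the libraries compared and between −0.35 and 0.33 with a library left out. Rps27l was 0.0157 for the mean genotype effect with library size only. With a library left out, Rpl39l ran from −0.59 to 0.39 between cell types in wild type. A fit with 1 library in a group assumes that it varies like the other groups.

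The labels did not say that replicate numbers mark shared animals. Over all genes, deviations of same-numbered libraries correlated at 0.19 between genotypes in endothelium, 0.16 in podocytes, −0.13 between cell types in wild type and 0.11 in knockout. Over the members the values were 0.21, 0.01, −0.48 and 0.18. With the replicate block 3 members passed between cell types in wild type, against 11.1% of all genes tested, and 0 passed in the other comparisons. A block with the podocyte numbers swapped, chosen after seeing the data, also gave 3, against 8.24%. Depth limits the 13 members with a mean under 5 CPM most.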
